A study of Mus musculus with 7 samples.

Results

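The genes described here code for the proteins that cut introns out of pre-mRNA and for the RNA-binding proteins that steer that reaction. They are the 95 genes, of 31531 with deposited values, whose symbol begins with Hnrnp, Srsf and a digit, Rbm and a digit, Sf3a or Sf3b and a digit, Snrp, or U2af and a digit, pseudogenes marked "-ps" left out. By symbol they fall into 20 hnRNP genes, 11 SR protein genes, 38 RBM genes, 9 SF3A and SF3B genes, 13 Snrp genes and 4 U2AF rows. The rule takes names, not functions, so that it also holds *Rbm46os*, a noncoding RNA, and *Snrpert*, a processed pseudogene. *U2af1l4* stands on 2 rows with different identifiers.

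RNA was measured at E17.5 in muscle fibers of 7 fetuses, 1 library per fetus. The fetuses were 4 wild-type (WT) and 3 labelled dyW, homozygous by the account of the study, on a C57BL/6 background. In dyW mice the *Lama2* gene, which codes for the laminin α2 chain of the muscle basement membrane, is disrupted in the germ line, and the strain serves as a model of LAMA2-CMD, a congenital muscular dystrophy. The mice came from crosses between heterozygotes, and no drug or other allele is named for either group. Fibers were freed from the epaxial (back) muscles with dispase II and collagenase A and were kept on a strainer, and libraries were made by SMART-seq2, in which cDNA from polyadenylated RNA is amplified by PCR without molecular identifiers. The comparison asks how the genes of the splicing machinery stood in dyW fibers at the fetal stage at which the study places disease onset.

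In splicing, the U1 particle binds the 5′ splice site, the 2 U2AF subunits bind the 3′ splice site, and the U2 particle, with its SF3A and SF3B subcomplexes, takes the branch site. A ring of Sm proteins, coded by Snrp genes, holds the RNA of these particles. SR proteins mostly favor the use of the exons they bind, whereas many hnRNP proteins mask splice sites or exons, and the balance between both families helps to set which exons a tissue keeps. Skeletal muscle relies heavily on regulated splicing, for example of titin, whose exons are chosen by RBM20. SR and hnRNP genes also control themselves through exons that lead their own mRNA to decay, so that an mRNA level does not give a protein level.

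The libraries differed in ways that touch every value below. Reads counted on genes ranged from 470804 to 2220813 in WT and from 3663905 to 18297106 in the libraries labelled dyW, so that 1 read was worth 2.05 to 5.33 normalized counts in WT and 0.0974 to 0.488 in the others. *Lama2* was 90.6, 111, 105 and 107 normalized counts in WT1 to WT4 and 4.29, 6.07 and 139.7 in the 3 libraries labelled dyW, so that the third stands at the WT level. It is called the library labelled dyW3 throughout, as 1 of the 3 libraries of the dyW group. The 16 myofiber markers summed to 2975 to 80273 normalized counts in WT and to 69.96 to 10999.8 in the libraries labelled dyW. In dyW1 8 of the 16 had no read, so that the defining markers of the tissue label were largely missing there (*Acta1* stood at 4.09 there and at 1973 or more in WT). Fibroblast and matrix markers, all 8 with reads in each library, summed to 5944 to 15262 in WT and to 26304 to 33524 in the libraries labelled dyW. The 5 endothelium markers, also all with reads, summed to 328 to 525 and to 555 to 1258, whereas the sums of the other 10 marker lists overlapped between groups. Taken as a share of a library, the proliferating-cell markers did not overlap either. They took 0.0088 to 0.0261% of WT libraries and 0.0460 to 0.0943% of the libraries labelled dyW. Cartilage markers took 17.4% of WT1, and erythroid markers up to 7.32% of a WT library and up to 9.61% of a library labelled dyW. In bulk RNA, fewer cells of a type and less RNA per cell cannot be told apart, and the part of these differences in the results below was not tested.

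The splicing genes had higher fold changes than most of the transcriptome. Their median log2 fold change was 0.64, against −1.99 over the 25791 genes tested (those with a mean of at least 5 normalized counts), and it stayed at 0.64 with the 2 genes that had no dyW read set to their bound. Of the 95 genes 92 were tested with limma, and 63 of the 92 had a positive log2 fold change, as did 5268 of all 25791 genes. At an adjusted P under 0.01 and an absolute log2 fold change over 1.5, 2 rose in the libraries labelled dyW, *Hnrnpdl* and *Rbm39*, where 0.0659% of all tested genes rose, and 0 fell, where 18.7% of all tested genes fell. At an unadjusted P under 0.05 6 were lower and 24 higher, beside 41.5% and 2.81% of all tested genes. At an adjusted P under 0.01 limma-voom on the recovered reads called 2 lower and 11 higher, beside 20.7% and 0.268%, and at 0.05 2 and 22, beside 26.6% and 1.85%. At an adjusted P under 0.05 and the same fold, 14 rose (1% of all tested genes) and 4 fell (29.6% of all tested genes). Without 1 library at a time 6 to 15 genes rose, beside 78 to 381 of the 24157 to 27068 genes tested in those fits. Of the 14, those that still passed were 10 without WT1, 6 without WT2, 12 without WT3, 8 without WT4, 11 without dyW1, 8 without dyW2 and 10 without the library labelled dyW3. The direction held under every scaling tried for these 14, but the calls did not: quantile normalization, which moved the median of all tested genes from −1.99 to 0.06, left 0 of them past either threshold.

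Low and abundant genes differed throughout the table. Of the tested splicing genes 65 had a mean of at least 50 normalized counts, and among them 14 rose and 0 fell at an adjusted P under 0.05 (0 also at an unadjusted P under 0.05 and by voom), where 3.98% of all 6111 genes of that level rose and 5.09% fell. When these 6111 genes alone were fitted, none of the 14 passed in limma and 0 of all 6111 rose, while 25 of the 65 had an unadjusted P under 0.05. The mean is taken over all 7 libraries and so moves with a change itself. Of the 65 genes 12 had a WT mean under 50 and reached it through the dyW group, among them *Hnrnpa0* (WT mean 20.8), so that the split between low and abundant genes describes them and supports nothing further. For the 65 genes the median log2 fold change was 0.94, beside 0.20 for all genes of that level. The 27 with a lower mean held all 4 genes that fell, and their median was −0.62, beside −2.58 for all genes of their level, of which 37.2% fell. In 25 of the 92 tested genes every library labelled dyW stood above every WT library, which was so for 3.28% of all tested genes, and in 4 every one stood below, which was so for 31.5%. Among the 65 more abundant genes these numbers were 24 and 0, where 12.2% and 6.81% of all genes of that level were apart in the same way.

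**Figure D1:**
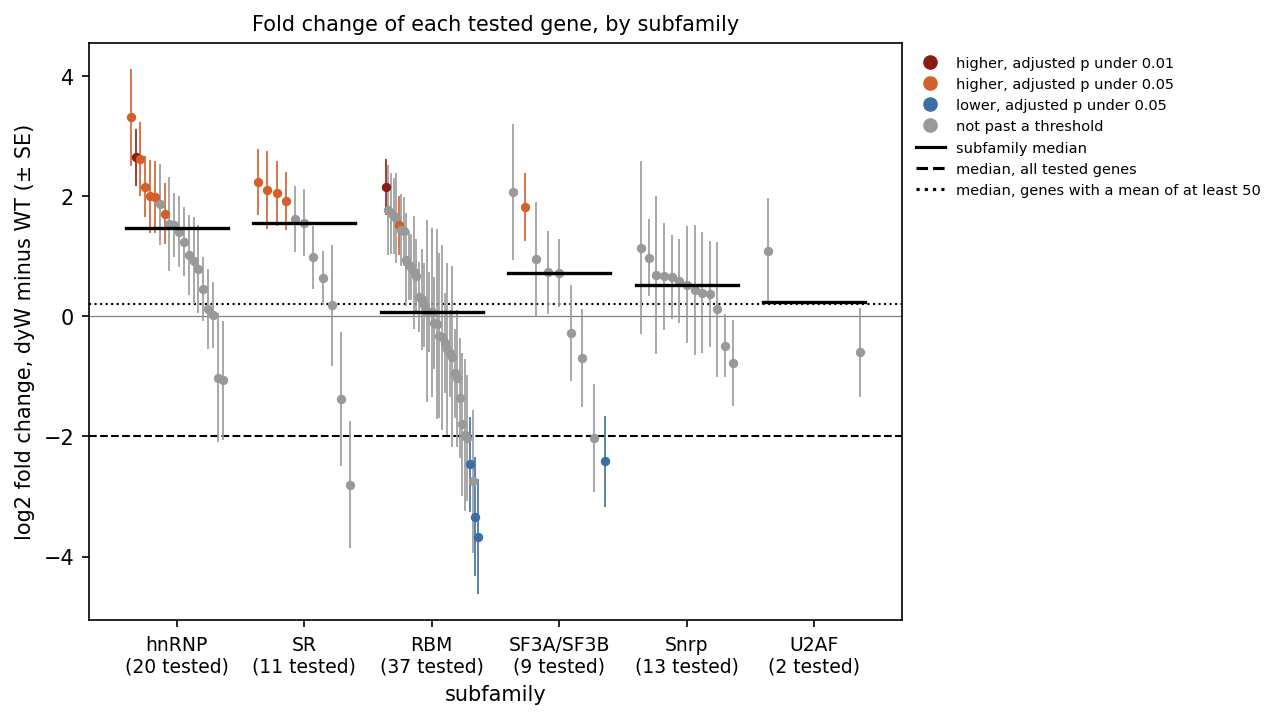
Fold change on the log2 scale (libraries labelled dyW minus WT, vertical axis, with its SE) of each of the 92 tested genes, by subfamily. Solid lines mark subfamily medians, from 0.07 in the RBM genes to 1.56 in the SR genes, all above the dashed line for all tested genes at −1.99.

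The 14 genes that rose were 7 hnRNP genes (*Hnrnpa0*, *Hnrnpdl*, *Hnrnph1*, *Hnrnpu*, *Hnrnpc*, *Hnrnpd* and *Hnrnpm*), 4 SR genes (*Srsf11*, *Srsf7*, *Srsf2* and *Srsf10*), *Rbm39*, *Rbm25* and *Sf3b1*. Promoter sequence shared by such genes can be read from RefSeq, which gives the bases before the start of 77 of the 94 symbols in build GRCm38.p6. In the 250 bases before the start, on either strand, CCGGAAG, the core that ETS factors bind, was in 19 of these 77 genes (24.7%), in 16.5% of the 4666 genes with a promoter and a mean of at least 50, and in 7.83% of all 27025 genes with a promoter. CGCGAGA, the core of an element found in promoters of housekeeping genes, was in 9 (11.7%), beside 6.34% and 2.42%. GGGCGG, the GC box, was in 43 (55.8%), beside 66.3% and 35.4%, ATTGG, the inverted CCAAT box, in 35 (45.5%), beside 40.1% and 37.5%, and TATAAA in 10 (13%), beside 8.68% and 14.3%. None of these letters is part of another of these motifs, and a match describes the window and not a bound site. All 14 genes that rose had a promoter in RefSeq, and CCGGAAG was in 3 of them (21.4%), CGCGAGA in 2 (14.3%), GGGCGG in 10, ATTGG in 6 and TATAAA in 3, so that the share with CCGGAAG was below that of all 77. The windows with CCGGAAG or CGCGAGA are shown, 5′ to 3′ on the strand of the gene in GRCm38.p6, with the motif or its reverse complement in capitals.
Srsf7, chr17:80207487-80207553, minus strand: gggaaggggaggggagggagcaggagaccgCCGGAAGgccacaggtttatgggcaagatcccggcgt
Srsf11, chr3:158036674-158036740, minus strand: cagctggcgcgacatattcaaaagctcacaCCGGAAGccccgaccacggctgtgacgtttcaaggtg
Hnrnpd, chr5:99979080-99979146, minus strand: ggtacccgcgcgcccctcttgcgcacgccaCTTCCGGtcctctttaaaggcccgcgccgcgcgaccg
Rbm39, chr2:156180384-156180450, minus strand: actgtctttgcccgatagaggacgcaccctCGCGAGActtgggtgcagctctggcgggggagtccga
Srsf10, chr4:135855975-135856041, plus strand: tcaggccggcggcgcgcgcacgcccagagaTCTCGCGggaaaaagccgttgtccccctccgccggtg

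The hnRNP genes held 7 of the 14 increases. All 20 were tested, 7 rose and 0 fell at an adjusted P under 0.05, beside 1% and 29.6% of all tested genes (10 and 0 at an unadjusted P under 0.05, 10 and 0 by voom), 13 did not pass, and the median log2 fold change was 1.46, beside −1.99 for all genes. All 20 had a mean of at least 50 normalized counts. Of all tested genes of that level 3.98% rose and 5.09% fell, and their median was 0.20. Values per library are given in the order WT1 to WT4, then, for the dyW group, dyW1, dyW2 and the library labelled dyW3. *Hnrnpdl* (chr5:100179317-100187792 of GRCm39, minus strand), an RNA-binding protein mutated in a form of limb-girdle muscular dystrophy, had normalized counts of 229, 119, 148 and 113 in WT and 1119, 751 and 924 in the dyW group. Every library labelled dyW exceeded every WT library at least 3.28-fold. Means were 152 ± 53.5 over the 4 WT libraries (SD, n = 4), compared with 931 ± 184 over the dyW group (SD, n = 3) (log2 fold change 2.65, SE 0.48, adjusted P = 0.00449). These values rest on 43, 44, 72 and 36 reads in WT and 11484, 5940 and 1892 in the libraries labelled dyW. Without WT2, WT4, dyW1 or dyW2 the adjusted P of *Hnrnpdl* rose to between 0.0141 and 0.0162, and over all alternatives it lay between 0.00126 and 0.155.

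*Hnrnpd*, the closest relative of *Hnrnpdl*, which binds AU-rich mRNA, had 53.3, 89, 69.7 and 81.8 in WT and 207, 606 and 190.5 in the dyW group. This gave a log2 fold change of 1.98 (SE 0.60, adjusted P = 0.0344). Its highest library was dyW2. *Hnrnpa0*, a small hnRNP that binds AU-rich elements, had the largest fold change of the family, 3.31 (SE 0.81, adjusted P = 0.0133), with normalized counts of 16, 5.39, 49.2 and 12.6 in WT and 149.8, 263 and 109 in the dyW group. The groups did not overlap, but WT rested on 3, 2, 24 and 4 reads. *Hnrnph1*, which binds runs of G, had 256, 72.8, 154 and 208 in WT and 1786, 844 and 592 in the dyW group, with dyW1 the highest and all 3 libraries labelled dyW above WT. The log2 fold change was 2.62 (SE 0.62, adjusted P = 0.0115).

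*Hnrnpu*, a nuclear scaffold protein that also binds RNA, had 304, 169.9, 219 and 129 in WT and 1290.2, 708 and 737 in the dyW group, without overlap. In limma, the log2 fold change came to 2.16 (SE 0.50, adjusted P = 0.0109). *Hnrnpc*, which masks runs of U near splice sites, had 74.6, 97.1, 312 and 119.6 in WT and 385, 685 and 519 in the dyW group, with WT3 close under dyW1. On the log2 scale, the fold change was 2.0 (SE 0.61, adjusted P = 0.0357). For *Hnrnpm*, which binds GU-rich sequence, the values were 90.6, 124, 149.7 and 91.3 in WT and 272, 528 and 341 in the dyW group, again without overlap. Between the groups, the log2 fold change was 1.71 (SE 0.51, adjusted P = 0.0327). *Hnrnpa0*, *Hnrnpdl*, *Hnrnph1* and *Hnrnpu* kept an adjusted P under 0.05 and the fold threshold whichever library was left out, whereas the other 3 did not. *Hnrnpd* passed only without dyW1 or the library labelled dyW3, *Hnrnpc* only without WT3 or dyW1, and *Hnrnpm* without WT3, dyW1 or the library labelled dyW3. In the fits in which they did not pass, the adjusted P was 0.0579 to 0.103 for *Hnrnpd*, 0.0609 to 0.103 for *Hnrnpc* and 0.0563 to 0.0968 for *Hnrnpm*.

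The most abundant members behaved less uniformly. Per kb of exon the highest levels of the 95 genes, as means over the 7 libraries, were those of *Hnrnpa2b1* (133 normalized counts per kb), *Snrpg* (124) and *Hnrnpk* (115). The order differed between groups, with *Snrpg* first in WT (153, beside 76.9 for *Hnrnpa2b1*) and *Hnrnpa2b1* first in the dyW group (209, beside 85 for *Snrpg*). *Hnrnpa2b1*, which binds exonic silencers and guides RNA transport, had normalized counts of 1008, 407, 1278 and 513 in WT and 3458, 2096 and 967 in the dyW group, and the library labelled dyW3 fell within the WT range. The fit gave a log2 fold change of 1.41 (SE 0.59, adjusted P = 0.1). Its partner *Hnrnpa1*, a repressor of exon inclusion, had 309, 105, 199 and 176 in WT and 619, 645 and 371 in the dyW group without overlap and narrowly missed the threshold (log2 fold change 1.52, SE 0.54, adjusted P = 0.0608). *Hnrnpk*, which binds runs of C, had 517, 588, 2868 and 491 in WT and 1569, 2481 and 695 in the dyW group, where WT3 was the highest library of all. Its log2 fold change was 0.78 (SE 0.73, adjusted P = 0.438). *Hnrnpl*, which binds CA repeats, had 187, 99.8, 107 and 179 in WT and 374, 79 and 112 in the dyW group, with dyW2 under every WT library. This gave a log2 fold change of 0.12 (SE 0.67, adjusted P = 0.908). At the negative end stood *Hnrnpul1*, a relative of *Hnrnpu*, with 155, 111, 84.1 and 129 in WT and 216, 8.73 and 84 in the dyW group. The log2 fold change was −1.06 (SE 0.99, adjusted P = 0.439). *Hnrnpab* and *Hnrnpf*, named after their values were seen, show the range. *Hnrnpab* had 315, 151 and 12.2 in the dyW group (log2 fold change −1.02, SE 1.08, adjusted P = 0.497). *Hnrnpf* had 26.7, 45.8, 59.5 and 47.2 in WT and 137, 353 and 83.5 in the dyW group without overlap (log2 fold change 1.86, SE 0.67, adjusted P = 0.0644).

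**Figure D2:**
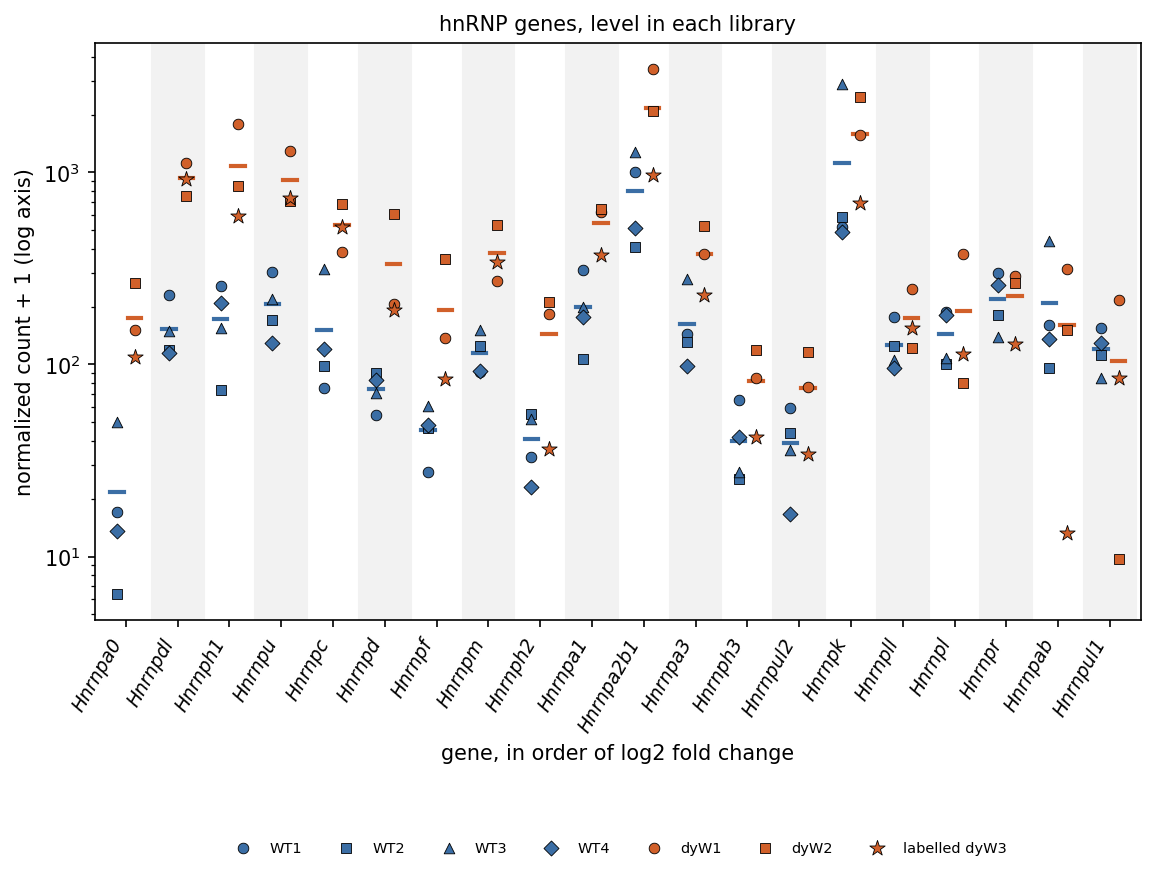
Normalized counts plus 1 (log axis) of the 20 hnRNP genes in each library, WT in blue and libraries labelled dyW in orange, with a short line at each group mean. Orange points stand above all blue points in 9 of the 20 genes and below all of them in 0.

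Most SR genes stood above WT in each library of the dyW group. In 8 of the 11 SR genes (72.7%, beside 45% of the hnRNP genes, a difference that was not tested, 3.28% of all tested genes and 12.2% of those with a mean of at least 50) every library labelled dyW exceeded every WT library, namely *Srsf1*, *Srsf2*, *Srsf3*, *Srsf5*, *Srsf6*, *Srsf7*, *Srsf10* and *Srsf11*, all 8 of the SR genes with a mean of at least 50 normalized counts. At an adjusted P under 0.05, 4 rose and 0 fell, beside 1% and 29.6% of all tested genes (6 and 1 at an unadjusted P under 0.05, 7 and 1 by voom), 7 did not pass, and the median log2 fold change was 1.56. Of all tested genes with a mean of at least 50, 3.98% rose and 5.09% fell at the same threshold. Any gene whose groups do not overlap reaches 0.0571, the smallest P of an exact two-sided permutation test of 4 against 3 libraries, so that this test could not pass 0.05 here. The 3 other SR genes all had a mean under 50.

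*Srsf11*, which binds at both ends of the intron, had normalized counts of 192, 111, 238 and 104 in WT and 979.8, 865 and 434 in the dyW group, with all 3 libraries labelled dyW above WT. Means were 161 ± 65 over the 4 WT libraries (SD, n = 4), compared with 759 ± 288 over the dyW group (SD, n = 3) (log2 fold change 2.23, SE 0.55, adjusted P = 0.0136), and it passed at 0.05 whichever library was left out. *Srsf7*, an SR protein with a zinc knuckle that also exports mRNA, had 192, 127, 632 and 113 in WT and 992, 758 and 915 in the dyW group, with WT3 well above the other WT libraries. In limma, the log2 fold change came to 2.10 (SE 0.65, adjusted P = 0.0373). It passed without WT3 (adjusted P = 0.00338) and in no other leave-one-out fit (adjusted P = 0.0674 to 0.112). *Srsf2*, which binds exonic enhancers and is mutated in myeloid cancers, had 64, 51.2, 90.3 and 101 in WT and 366, 213 and 378 in the dyW group (log2 fold change 2.05, SE 0.54, adjusted P = 0.0186), on 12, 19, 44 and 32 reads in WT, and it did not pass without WT2 (adjusted P = 0.0602). *Srsf10*, which turns into a splicing repressor when its phosphates are lost, had 155, 94.4, 137 and 101 in WT and 462, 365 and 548 in the dyW group, without overlap. On the log2 scale, the fold change was 1.91 (SE 0.48, adjusted P = 0.0153). It too did not pass without WT2 (adjusted P = 0.0513). The promoter windows of *Srsf7*, *Srsf11* and *Srsf10* are those printed above.

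*Srsf5* and *Srsf6*, relatives that bind similar exonic enhancers, missed the threshold narrowly. *Srsf5* had 155, 183, 343 and 154 in WT and 1029, 556 and 387 in the dyW group. Between the groups, the log2 fold change was 1.62 (SE 0.55, adjusted P = 0.0541). *Srsf6* had 79.97, 210.3, 211 and 138 in WT and 557, 504 and 306 in the dyW group. The fit gave a log2 fold change of 1.56 (SE 0.55, adjusted P = 0.0613). *Srsf1*, the founding member of the family, had 165, 146, 144 and 91.3 in WT and 390.3, 264 and 179 in the dyW group, and here the library labelled dyW3 stood close to WT1. Its log2 fold change was 0.98 (SE 0.53, adjusted P = 0.185). *Srsf3*, which couples splicing to mRNA export, changed least among the 8, with 256, 227, 336 and 220.3 in WT and 387, 471 and 349.7 in the dyW group. This gave a log2 fold change of 0.64 (SE 0.45, adjusted P = 0.301). After quantile normalization its log2 fold change was −0.30, so that its direction depended on the scaling.

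Of the 3 low SR genes *Srsf12* and *Srsf4* had negative fold changes and *Srsf9* one near 0. *Srsf12*, a repressor that is scarce in most tissues, had 26.7, 10.8, 0 and 6.29 normalized counts in WT and no read in any library labelled dyW, which allows up to 3 reads in each, a mean of 0.712 normalized counts. Its WT mean was at least 15.4-fold above that limit, but rested on 5, 4, 0 and 2 reads and was 0.555 times the median level of vomeronasal and odorant receptor genes, set to its exon length, and the difference did not pass in limma (adjusted P = 0.0717). It did without WT3 (adjusted P = 0.00545) and by voom (adjusted P = 0.00419). *Srsf4* and *Srsf9*, named after their values were seen, overlapped between groups. *Srsf4* had 26.7, 18.9, 14.4 and 15.7 in WT and 19.98, 0 and 18.6 in the dyW group. The log2 fold change was −1.38 (SE 1.12, adjusted P = 0.371). *Srsf9* had 42.6, 32.4, 47.2 and 12.6 in WT and 49.7, 118 and 6.35 in the dyW group. In limma, the log2 fold change came to 0.18 (SE 1.01, adjusted P = 0.906).

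**Figure D3:**
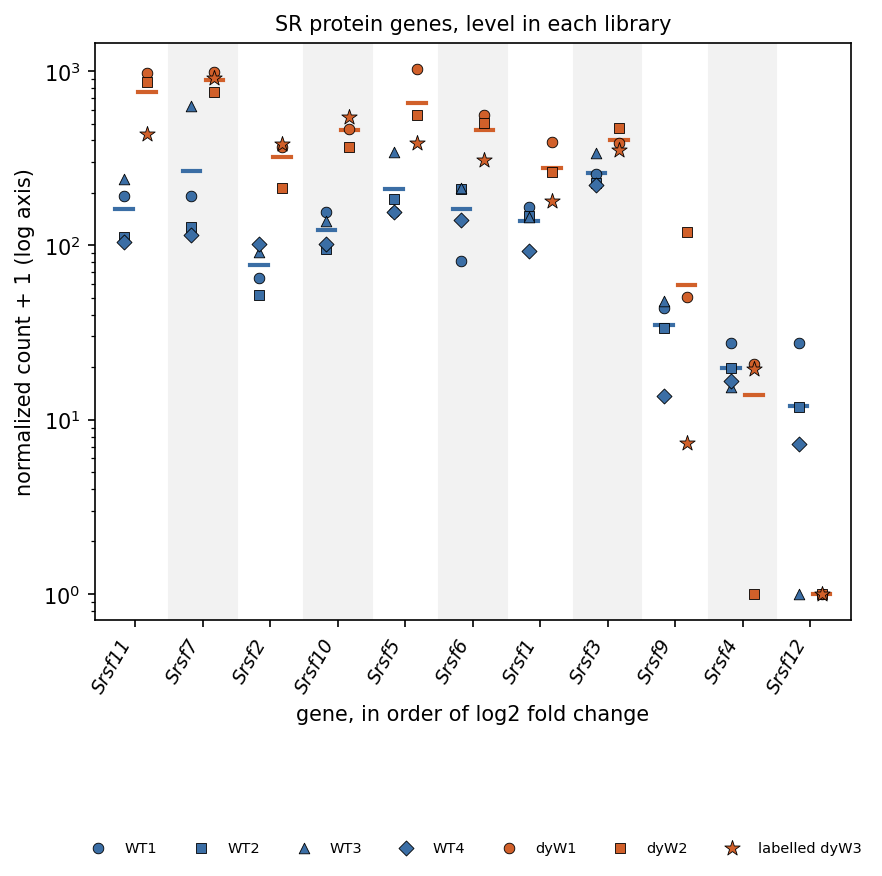
Normalized counts plus 1 (log axis) of the 11 SR protein genes in each library, WT in blue and libraries labelled dyW in orange, with a short line at each group mean. The 8 genes from *Srsf11* to *Srsf3* have every orange point above every blue point, whereas *Srsf9*, *Srsf4* and *Srsf12* overlap.

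The RBM genes, which share only an RNA-binding domain and a naming scheme, mostly did not pass. Of 38 genes 37 were tested, 2 rose and 3 fell at an adjusted P under 0.05 (5.41% and 8.11%, beside 1% and 29.6% of all tested genes, and 7 and 4 at an unadjusted P under 0.05, 3 and 1 by voom, 8 and 0 with each library scaled to the same total), and 32 did not pass, with a median log2 fold change of 0.07. With each library scaled to the same total, 1252 of all 25791 tested genes rose and 5349 fell at that threshold. In 7 of the 37 every library labelled dyW stood above WT (18.9%, beside 3.28% of all tested genes) and in 3 below it (8.11%, beside 31.5%). *Rbm39* (chr2:155988271-156022305 of GRCm39, minus strand), a U2AF-related splicing factor, had normalized counts of 283, 208, 355 and 220.3 in WT and 1708, 1113 and 824 in the dyW group. The lowest library labelled dyW was 2.32 times the highest WT library. Means were 266 ± 67.5 over the 4 WT libraries (SD, n = 4), compared with 1215 ± 451 over the dyW group (SD, n = 3) (log2 fold change 2.15, SE 0.46, adjusted P = 0.00773). Without WT2, WT4, dyW1, dyW2, WT1 or the library labelled dyW3 its adjusted P lay between 0.0112 and 0.0312, over 0.01 but under 0.05. *Rbm25*, which works with the U1 particle, had 399.8, 229, 156 and 186 in WT and 555, 710.0 and 696 in the dyW group (log2 fold change 1.51, SE 0.49, adjusted P = 0.0462), without overlap, and it passed only without WT1 among the 7 leave-one-out fits (adjusted P = 0.0202).

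*Rbm46os*, *Rbm44* and *Rbm19* fell, and all 3 had few reads. *Rbm46os*, a noncoding RNA that shares 302 bases of its span with the germ cell gene *Rbm46* on the other strand, had 16, 53.9, 10.3 and 28.3 in WT and 0, 0 and 5.37 in the dyW group. On the log2 scale, the fold change was −3.67 (SE 0.95, adjusted P = 0.0174). *Rbm44*, a protein of germ cell bridges, had 10.7, 21.6, 20.5 and 37.8 in WT and 0, 0 and 8.79 in the dyW group. Between the groups, the log2 fold change was −3.34 (SE 0.99, adjusted P = 0.0308). *Rbm19*, which acts in ribosomal RNA processing, had 37.3, 40.5, 28.7 and 56.6 in WT and 17.7, 1.90 and 6.35 in the dyW group. The fit gave a log2 fold change of −2.46 (SE 0.80, adjusted P = 0.0439). The WT means of these genes were 0.743, 0.692 and 1.27 times what the median level of 1208 odorant and vomeronasal receptor genes, which are expressed chiefly in sensory neurons of the nose, would give for their exon length. That receptor level was 3.37, 6.69, 3.62 and 5.82 normalized counts per kb in WT1 to WT4 and 0, 0 and 0.525 in the libraries labelled dyW, so that it moved with the groups in the same direction as these genes. With it subtracted none of the 3 passed. No other splicing gene passed then in either direction, and 23 of 25622 genes fell at 0.05, beside 7625 without subtraction. The loss of these 3 calls is therefore not particular to them, and its cause was not tested. None of the 3 passed at 0.05 without WT2, WT4 or dyW2, *Rbm19* also not without WT1 or WT3, and *Rbm44* also not without WT3 or dyW1.

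The RBM genes with known roles in muscle were low and uneven. *Rbm20*, the regulator of titin exons, had 26.7, 29.7, 16.4 and 44.1 in WT and 0, 37.9 and 13.2 in the dyW group (log2 fold change −1.80, SE 1.19, adjusted P = 0.277), with no read in dyW1 and 300 reads in dyW2. *Rbm24*, which supports muscle-specific exons, had 16, 24.3, 24.6 and 44.1 in WT and 0, 93.6 and 149 in the dyW group, again at 0 in dyW1, the library with 8 of the 16 myofiber markers at 0. Its log2 fold change was −0.13 (SE 1.59, adjusted P = 0.957). Without dyW1 its log2 fold change was 2.17 with an adjusted P of 0.0445, the reverse of its sign in the fit of all libraries. *Rbm38*, a regulator of mRNA stability in muscle differentiation, had 0, 24.3, 20.5 and 28.3 in WT and 42, 0.506 and 4.40 in the dyW group. This gave a log2 fold change of −0.67 (SE 1.51, adjusted P = 0.757). *Rbm20* and *Rbm24* stood at 0.774 and 1.01 times the receptor level in WT. By WT library these multiples ran from 0.573 to 1.02 and from 0.657 to 1.37, and a difference from that level was not tested.

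*Rbm3*, which is induced by cold, had 90.6, 111, 297 and 119.6 in WT and 296, 274 and 132 in the dyW group, with WT3 above all 3 libraries labelled dyW. The log2 fold change was 0.68 (SE 0.62, adjusted P = 0.429). *Rbm4*, a regulator of alternative exons, had 0, 8.09, 8.21 and 6.29 in WT and 38.2, 0 and 0 in the dyW group, all of its dyW reads being in dyW1. In limma, the log2 fold change came to −0.55 (SE 1.43, adjusted P = 0.793). *Rbm11*, named after its values were seen, had 0, 16.2, 2.05 and 37.8 in WT and no read in the dyW group, and its difference did not pass in limma (adjusted P = 0.108) but did by voom (adjusted P = 0.00693). With *Srsf12* it made up the 2 lower calls of voom. *Rbm8a2* had a mean under 5 and was not tested. *Rbm8a*, a core protein of the exon junction complex, named after its values were seen, had 37.3, 64.7, 201 and 53.5 in WT and 131, 456 and 189 in the dyW group, where WT3 exceeded 2 of the 3 libraries labelled dyW. On the log2 scale, the fold change was 1.64 (SE 0.75, adjusted P = 0.125).

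The genes of the U2 particle's SF3 subcomplexes had 1 call in each direction. Of the 9, all tested, *Sf3b1* rose and *Sf3a2* fell at an adjusted P under 0.05, 11.1% each, beside 1% and 29.6% of all tested genes (1 and 1 at an unadjusted P under 0.05, 2 and 0 by voom or with the same total), and 7 did not pass, with a median log2 fold change of 0.72. With the same total 1252 of all 25791 tested genes rose and 5349 fell. *Sf3b1*, the large scaffold that holds the branch site, had normalized counts of 639.7, 186, 544 and 198 in WT and 1168, 1252 and 1158 in the dyW group. Its 3 libraries labelled dyW lay close together, above all of WT. Means were 392 ± 234 over the 4 WT libraries (SD, n = 4), compared with 1193 ± 51.9 over the dyW group (SD, n = 3) (log2 fold change 1.82, SE 0.57, adjusted P = 0.038). It passed only without WT1 or WT3 among the 7 leave-one-out fits, and without any of the others its adjusted P lay between 0.0729 and 0.115. *Sf3a2*, a subunit of SF3A, had 21.3, 48.5, 12.3 and 44.1 in WT and 5.55, 2.66 and 5.37 in the dyW group. Between the groups, the log2 fold change was −2.42 (SE 0.76, adjusted P = 0.0391). It did not pass without WT1, WT2, WT4 or dyW2 (adjusted P = 0.0799 to 0.146). All libraries of the dyW group stood below WT, on 4, 18, 6 and 14 reads in WT and 57, 21 and 11 in the dyW group, and the WT mean was 1.89 times the receptor level. *Sf3a1*, a subunit of the same complex, named after its values were seen, had 85.3, 80.9, 71.8 and 142 in WT and 84.7, 5.19 and 21 in the dyW group. The fit gave a log2 fold change of −2.03 (SE 0.90, adjusted P = 0.113). The groups overlapped for *Sf3b2*, a further SF3B subunit, with 219, 108, 94.4 and 113 in WT and 164, 333 and 166 in the dyW group. Its log2 fold change was 0.72 (SE 0.57, adjusted P = 0.356). They also overlapped for *Sf3b6*, which touches the branch-point adenosine, with 5.33, 62, 203 and 75.5 in WT and 92.1, 286 and 340.4 in the dyW group. This gave a log2 fold change of 2.06 (SE 1.13, adjusted P = 0.194).

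No Snrp gene passed on the deposited normalized counts, and in each of them the groups overlapped. Of the 13, all tested, 0 rose and 0 fell at an adjusted P under 0.05, beside 1% and 29.6% of all tested genes (0 and 0 also at an unadjusted P under 0.05 and by voom). With the same total 1 rose and 0 fell, beside 1252 and 5349 of all 25791 tested genes. Groups that did not overlap were found in 3.28% of all tested genes above WT and in 31.5% below. Their median log2 fold change was 0.53, below that of the hnRNP and SR genes and above that of all tested genes. In each group 1 library led most of them. WT3 was the highest WT library for 10 of the 13 and dyW2 the highest library labelled dyW for 9. *Snrpe*, a ring protein, had 26.7, 218, 1042 and 208 in WT and 161, 406 and 261 in the dyW group (log2 fold change 0.44, SE 1.08, adjusted P = 0.781), so that WT alone spanned 39.1-fold. *Snrpg*, another, had 107, 143, 478 and 271 in WT and 57.2, 202 and 158 in the dyW group. The log2 fold change was −0.78 (SE 0.72, adjusted P = 0.434). *Snrpb*, the ring's largest subunit, had 48, 205, 472 and 145 in WT and 93.9, 330.5 and 541 in the dyW group. In limma, the log2 fold change came to 0.66 (SE 0.89, adjusted P = 0.595).

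*Snrpn*, the paralog of *Snrpb* that is used most in brain and is expressed from the paternal copy, had 10.7, 0, 22.6 and 25.2 in WT and 2.05, 56.7 and 46.9 in the dyW group (log2 fold change 1.14, SE 1.45, adjusted P = 0.573), a WT mean of 0.319 times the receptor level. *Snrpd2* and *Snrpd3* are ring proteins chosen after their values were seen, as cases of the same library pattern. *Snrpd2* had 16, 80.9, 217 and 47.2 in WT and 14.6, 697 and 88.9 in the dyW group. On the log2 scale, the fold change was 0.68 (SE 1.31, adjusted P = 0.718). *Snrpd3* had 42.6, 127, 542 and 126 in WT and 71.9, 659.9 and 128 in the dyW group. Between the groups, the log2 fold change was 0.39 (SE 1.01, adjusted P = 0.789). *Snrpc*, a U1 protein, likewise chosen, had 133, 91.7, 144 and 97.5 in WT and 66, 83.7 and 97.2 in the dyW group. The fit gave a log2 fold change of −0.49 (SE 0.53, adjusted P = 0.505).

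Of the U2AF genes, the 2 tested did not pass. *U2af1*, the small subunit, which reads the AG at the end of the intron, had 64, 72.8, 189 and 37.8 in WT and 63.3, 595 and 114 in the dyW group, with dyW2 far above the rest. Its log2 fold change was 1.09 (SE 0.89, adjusted P = 0.377). *U2af2*, the large subunit, which binds the pyrimidine tract, had 79.97, 51.2, 39 and 56.6 in WT and 49.6, 12.6 and 71.8 in the dyW group, with dyW2 lowest. This gave a log2 fold change of −0.60 (SE 0.74, adjusted P = 0.563). In dyW2 the subunits of this heterodimer thus stood at opposite ends of their ranges. Both rows of *U2af1l4* were under the mean of 5 normalized counts and were not tested.

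**Figure D4:**
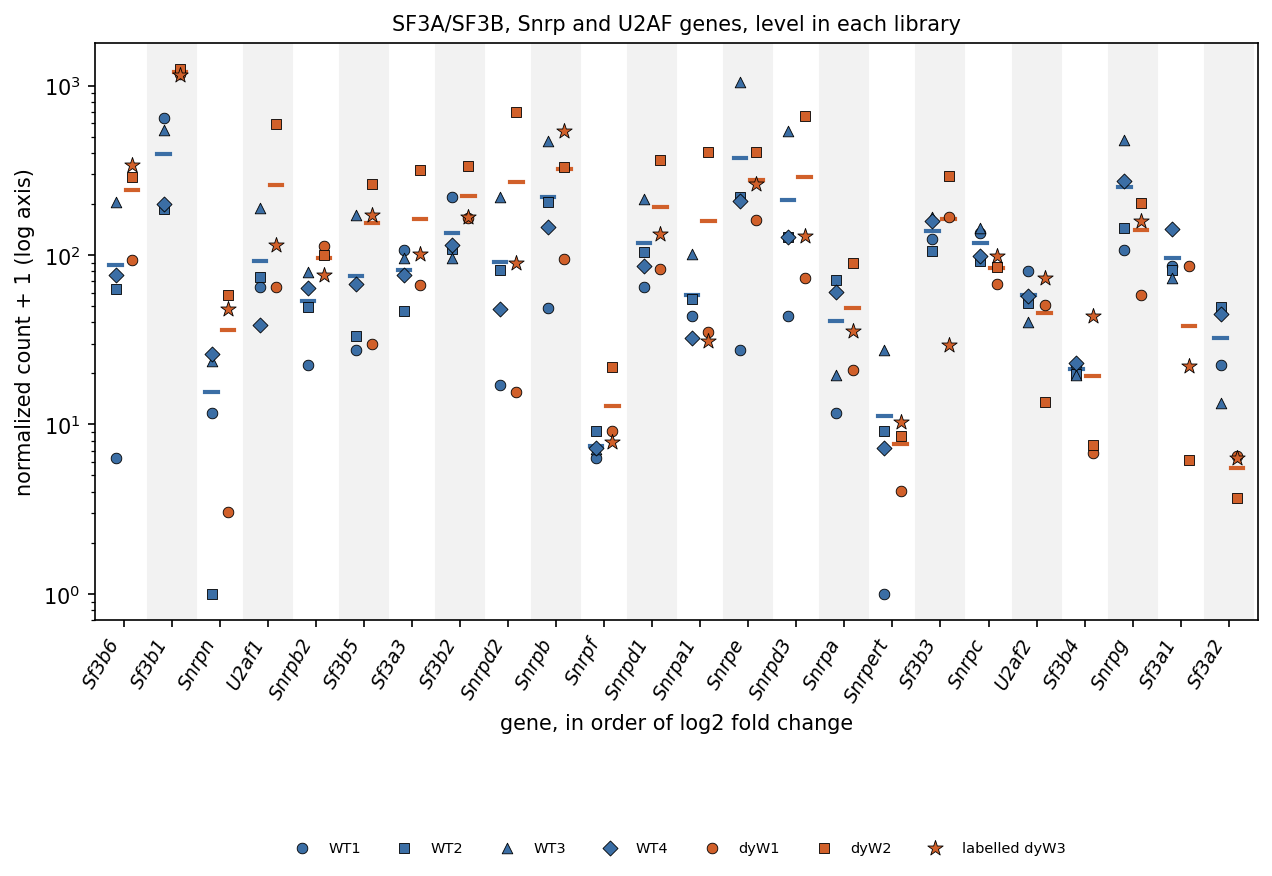
Normalized counts plus 1 (log axis) of the 24 tested SF3A, SF3B, Snrp and U2AF genes in each library, WT in blue and libraries labelled dyW in orange, with a short line at each group mean. *Sf3b1* is the gene with all orange points above the blue ones and *Sf3a2* the one with all below, and the other 22 overlap.

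Sums over each subfamily, taken as a share of a library's normalized counts, do not depend on the size factors. The 95 genes took 0.421, 0.203, 0.354 and 0.149% of the normalized counts in WT1 to WT4 and 1.88, 1.16 and 1.02% in the libraries labelled dyW. The hnRNP genes took 0.0533 to 0.166% in WT and 0.355 to 0.939% in the dyW group, and the SR genes 0.0191 to 0.0540% and 0.178 to 0.374%. The RBM genes took 0.0374 to 0.124% and 0.192 to 0.381%, and the SF3 genes 0.0161 to 0.0497% and 0.114 to 0.127%. None of these 4 shares overlapped between the groups. With each library set to the same total, the 6111 genes with a mean of at least 50 had a median log2 fold change of 1.33. On that scale the medians of these 4 families were 2.61, 2.71, 1.02 and 1.86. Of the 6111 genes 1133 rose and 142 fell there at an adjusted P under 0.05, so that higher shares were common among abundant genes. The Snrp share overlapped between groups, with 0.0210 to 0.0738% and 0.0519 to 0.148%. The 10 most abundant genes took 43.3 to 77.3% of WT libraries and 16.4 to 37.6% of the others, so that the room left for all other genes differed with the groups as well.

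Ratios within a library do not depend on that room. The sum of the SR genes was 0.326, 0.451, 0.324 and 0.358 times that of the hnRNP genes in WT1 to WT4 and 0.398, 0.356 and 0.554 times in the libraries labelled dyW, so that the ranges overlap for these families of often opposed roles. SR genes relative to Snrp genes stood at 2.57, 1.05, 0.653 and 0.903 in WT and 7.21, 1.20 and 2.19 in the libraries labelled dyW, and hnRNP genes relative to Snrp genes at 7.88, 2.32, 2.01 and 2.52 and 18.1, 3.38 and 3.95. Both ratios were highest in dyW1, both overlapped between groups, and WT1 exceeded dyW2 in each. A pair of ratios between single genes, chosen after their values were seen, did not overlap. *Sf3b1* was 7.50, 2.30, 7.57 and 1.40 times *Sf3a1* in WT and 13.8, 242 and 55.1 times in the libraries labelled dyW, and *Rbm39* was 0.946, 1.15, 2.58 and 0.854 times *Hnrnpr* and 5.93, 4.22 and 6.51 times.

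**Figure D5:**
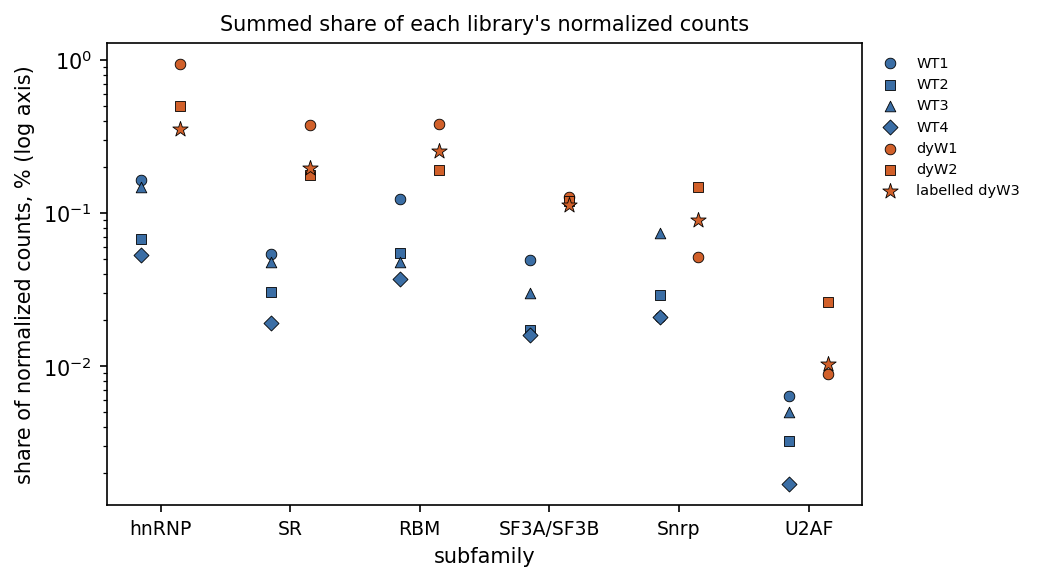
Share of each library's normalized counts (percent, log axis) taken by each subfamily, WT in blue and libraries labelled dyW in orange. All orange points stand above all blue points in every subfamily but Snrp, where WT3 stands above dyW1.

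Other genes of the splicing machinery, from a list of 135 symbols of which 133 had values, give the setting. At an adjusted P under 0.01 and the fold threshold 2 of the 133 rose, *Son* and *Pspc1*, where 0.0659% of all tested genes rose, and 5 fell, *Rbfox3*, *Celf4*, *Celf5*, *Celf6* and *Esrp2*, where 18.7% fell. At 0.05 12 rose and 9 fell, beside 1% and 29.6% of all tested genes, and the median log2 fold change was 0.28. The SR-related proteins and SR kinases, 18 genes, had the highest median of the 7 groups of the list, 0.88, with 4 that rose and 1 that fell (22.2% and 5.56%, beside 1% and 29.6% of all tested genes at an adjusted P under 0.05). *Son*, a large SR-related protein at the core of nuclear speckles, had 219, 169.9, 191 and 220.3 in WT and 1312, 1555 and 918 in the dyW group, without overlap. The log2 fold change was 2.63 (SE 0.43, adjusted P = 0.00374). *Clk4*, a kinase of SR proteins, *Luc7l3*, a U1-associated protein, and *Srrm1*, a speckle coactivator, named after their values were seen, had log2 fold changes of 2.20 (adjusted P = 0.0102), 2.51 (adjusted P = 0.0102) and 1.62 (adjusted P = 0.0289). *Pspc1*, a paraspeckle protein, had 53.3, 48.5, 43.1 and 53.5 in WT and 319, 196 and 234 in the dyW group. In limma, the log2 fold change came to 2.28 (SE 0.52, adjusted P = 0.00947).

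In contrast, *Srpk3*, the SR kinase that is specific to muscle, had 5.33, 35.1, 47.2 and 15.7 in WT and 7.50, 0.253 and 0 in the dyW group, with dyW1 within the WT range. On the log2 scale, the fold change was −3.23 (SE 1.06, adjusted P = 0.0464). The LSM ring, which holds the U6 RNA as the Sm ring holds the others, had 0 of 8 genes past the threshold in either direction (0 and 0 also at an unadjusted P under 0.05 and by voom). The exon junction complex had 0 and 0 of 8 by each of these counts. The 26 proteins of the U1, U5 and tri-snRNP particles had 1 that rose and 0 that fell (5 and 0 at an unadjusted P under 0.05, 4 and 0 by voom). Each of these counts stands beside 1% of all tested genes that rose and 29.6% that fell at an adjusted P under 0.05, and beside 2.81% and 41.5% at an unadjusted P under 0.05. With the same total, 1 gene of the LSM ring, 1 of the exon junction complex and 5 of the particle proteins rose, and 0 fell. On that scale 1252 of all 25791 tested genes rose and 5349 fell.

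Of the 44 tissue regulators and other RNA-binding regulators on the list 6 rose and 8 fell at an adjusted P under 0.05, beside 1% and 29.6% of all tested genes. Those that rose were *Pspc1*, *Tardbp*, *Tial1*, *Matr3*, *Pcbp2* and *Ptbp3*, and those that fell were *Rbfox3*, *Celf5*, *Esrp2*, *Celf6*, *Celf4*, *Khdrbs2*, *Rbfox1* and *Elavl4*. *Rbfox3*, *Celf4*, *Celf5* and *Celf6* are best known from neurons and *Esrp2* from epithelia, and their WT means were 0.632, 0.941, 0.843, 0.345 and 0.538 times the receptor level. *Rbfox1*, which acts in muscle as well as neurons, had 21.3, 16.2, 24.6 and 34.6 in WT and 0, 0 and 8.79 in the dyW group (log2 fold change −3.51, SE 0.96, adjusted P = 0.0217), 0.509 times the receptor level in WT. *Mbnl1*, *Celf1* and *Ptbp1* did not pass. *Mbnl1*, which promotes adult exons, had 586, 129, 139 and 132 in WT and 804, 203 and 409.7 in the dyW group. Between the groups, the log2 fold change was 1.07 (SE 0.73, adjusted P = 0.295). *Celf1*, its antagonist, had 96, 72.8, 69.7 and 44.1 in WT and 249.9, 72.6 and 107 in the dyW group. The fit gave a log2 fold change of 0.87 (SE 0.63, adjusted P = 0.324). *Ptbp1*, which represses muscle exons, had 165, 94.4, 61.5 and 104 in WT and 216, 29.5 and 76.7 in the dyW group. Its log2 fold change was −0.34 (SE 0.76, adjusted P = 0.762).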

How the data were processed

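RNAseq of E17.5 muscle fibers was used from 7 fetuses, 4 WT and 3 labelled dyW, grouped by the genotype in the sample titles. The authors used Cutadapt for trimming, RNA STAR for alignment to GRCm39, FeatureCounts for the number of uniquely mapped reads per gene and DESeq2 for 1 size factor per library; tool versions, annotation release and strand setting are not given in the sources used here. These deposited values, normalized counts, are treated as a score and not as a count. A table of the authors' own comparison (fold changes and P-values) was not used.

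Within each library the values were whole multiples of 1 step, the worth of 1 read (100% within 0.1 read), which gave the reads counted on genes, from 470804 to 18297106. Intervals and limits cover counting error only. Genes with a mean of at least 5 were compared with limma 3.58.1 (R 4.3.3, eBayes with trend) on log2(normalized count + 1), with Benjamini-Hochberg adjustment over all 25791 genes, a scale that understates changes of low genes. For single genes an exact two-sided permutation test was added. Coordinates and exon lengths are of GENCODE release 39 (GRCm39, 99.2% of identifiers matched); promoters are of RefSeq (GRCm38.p6), and no position was moved between builds. Of the 95 genes 77 overlap another annotated gene, and many hnRNP and Snrp genes have near-identical pseudogenes, so their values are uncertain to that extent. Each library came from 1 fetus, so that P-values set a difference against the spread between libraries. That spread also holds differences in depth and counting error. The litter of each fetus is not given in the sources used here.

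The genes named are all past a threshold, the 2 highest and the extreme fold changes of each subfamily, a list of 24 well-known members, other splicing genes called or on a list of 5, and names said to be chosen after their values were seen. The members and lists were chosen with earlier results of these data known. Other settings were a pseudocount of 0.1 or 10, a minimum mean of 50 or none, the same total, quantile normalization, centring, a replicate block, each library left out, subtraction of the receptor level and a log2 fold change over 1; voom on recovered reads and centring on genes with a mean of at least 50 were added after seeing the data. Tables and plots were made in Python 3.11.15 (pandas 2.3.3, numpy 2.4.6, matplotlib 3.10.9), and the limma fit was tested on simulated data.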

Additional observations from a re-analysis of the deposited data

Results flagged for a closer look

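In 8 of 56 groups of 4 WT values checked (14.3%) 1 library lay far from the other 3. The chance rate of about 1 in 20 holds for independent groups fixed beforehand, so this share cannot be tested against it. *Rbm8a* and *Snrpd3*, flagged below, were named after their values were seen, and genes of 1 library are not independent. In WT3 *Hnrnpk* stood at 2868, beside 588 in the next library (the gap was 0.959 of the WT range), *Rbm3* at 297, beside 119.6 (0.860), *Rbm8a* at 201, beside 64.7 (0.833), *Snrpd3* at 542, beside 127 (0.831), *Srsf5* at 343, beside 183 (0.845), and *Srsf7* at 632, beside 192 (0.848). In WT1, the library with the fewest reads, *Sf3b2* stood at 219, beside 113 (0.848), and the RBM genes summed to 3108 normalized counts, beside 2195 (0.883). The cause of these values was not tested.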

How the results depend on the processing

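The counts rest on 7 libraries of unequal depth and on the scaling. Of the splicing genes, 0 fell and 2 rose at an adjusted P under 0.01, and 4 fell and 14 rose at 0.05; of the 133 others, 5 and 2, and 9 and 12. In the same order the 4 counts of the splicing genes were 0, 0, 0 and 0 with a mean of at least 50, quantile normalization, the receptor level subtracted or the replicate block, 0, 0, 0 and 36 centred on the median of tested genes, 0, 0, 0 and 31 with the same total, 0, 5, 2 and 17 with a pseudocount of 0.1, 0, 0, 1 and 9 with 10, 1, 1, 5 and 8 centred on genes with a mean of at least 50, and 2, 11, 2 and 22 by voom. Over all tested genes 2638 rose at 0.05 centred on the median of tested genes and 1252 with the same total, beside 259. For the 133 others they were 0, 0, 0 and 0 in the first 4 settings, the replicate block included, 0, 0, 0 and 48 centred on the median of tested genes, 0, 0, 4 and 32 with the same total, 4, 5, 7 and 14 with a pseudocount of 0.1, 0, 0, 5 and 8 with 10, 5, 1, 11 and 8 centred on genes with a mean of at least 50, 2, 5, 4 and 19 by voom, and 5, 1, 9 and 11 without a filter. A log2 fold over 1 gave 0 lower and 2 higher. Leaving out 1 library at a time gave 0 to 2, 0 to 5, 0 to 6 and 6 to 15 for the splicing genes and 0 to 9, 0 to 1, 5 to 11 and 5 to 13 for the others. Over all tested genes these fits gave 0 to 6698, 0 to 25, 5357 to 10741 and 78 to 381. In WT libraries 1 to 3 the deviations correlated with those of the same-numbered dyW libraries at 0.15, −0.05 and −0.09. The highest value over all pairs was 0.23, for WT3 with dyW2. The numbers thus gave no clear sign of a pairing, which so few correlations cannot exclude. Sign changes with a call on either side were *Rbm44* (0.88), *Celf6* (0.22), *Esrp2* (0.11) and *Rbfox1* (0.74) with the receptor level subtracted, *Rbm19* (0.37) and *Sf3a2* (0.42) centred on the median of tested genes, and *Rbm24* (2.17 without dyW1, −1.45 to 2.17 over the libraries left out); the cause was not tested. The 14 genes that rose kept a positive fold change in every alternative. edgeR with TMM or the deposited factors and DESeq2 were not run, and voom is the model that was run on the recovered reads. WT depth limits low genes most, since 1 read is worth 2.05 to 5.33 normalized counts there.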
